A study of Mus musculus with 8 samples.

Results

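The genes described are the family 4 cytochrome P450 hydroxylases Cyp4a10, Cyp4a12a, Cyp4a12b, Cyp4a14, Cyp4b1, Cyp4f13, Cyp4f14, Cyp4f15, Cyp4f16 and Cyp4v3. They were taken by symbol from the array annotation, keeping transcript clusters (the array's unit for a gene) that list exactly 1 symbol and, per gene, the cluster with the highest mean over all 8 arrays. A single-symbol cluster was found for 9 of the 10 genes, out of 22180 genes with such a cluster. Cyp4a10 had none, because both of its clusters also list a neighbouring gene. The 8 liver samples, 3 wild-type (WT) and 5 Abhd15 knockout (KO), came from male C57BL/6J mice on normal chow and had 1 Mouse Gene 2.0 ST array each. The design text gives an age of 14 weeks and a 1 hour meal after an overnight fast, for both genotypes, whereas the sample labels give the 14 weeks as the longest time on chow. Abhd15 belongs to the alpha/beta hydrolase fold proteins and has been studied mostly in adipocytes, and the labels do not say which part of the gene was deleted or how many lines the KO mice represent.

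Family 4 cytochrome P450 enzymes are heme proteins of the endoplasmic reticulum that add a hydroxyl group at the far (omega) end of fatty acids, eicosanoids and related lipids. The alcohol is then oxidised to a dicarboxylic acid, which peroxisomes shorten. In rodent liver the Cyp4a genes are classic targets of the fasting- and fatty acid-responsive receptor PPARA, the Cyp4a12 genes are male-biased, and the Cyp4f enzymes inactivate inflammatory lipids such as leukotriene B4.

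Promoter sequences were available for 6 of the 10 genes, from RefSeq on GRCm38.p6, each with 250 bases before and 50 after the gene's start. All 4 Cyp4f genes had a promoter with the CCAAT box on the antisense strand, read as ATTGG on the gene's own strand, and Cyp4b1 and Cyp4v3 held none on either strand. The stretch around it is shown, 5′ to 3′ on the gene's strand, because the Cyp4f genes sit together on 1 chromosome and are compared with each other further on. Capitals mark the ATTGG.
Cyp4f13, chr17:32947403-32947467, minus strand: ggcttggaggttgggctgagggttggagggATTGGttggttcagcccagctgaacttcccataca
Cyp4f14, chr17:32917372-32917436, minus strand: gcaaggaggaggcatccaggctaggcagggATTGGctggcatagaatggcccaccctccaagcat
Cyp4f15, chr17:32685551-32685615, plus strand: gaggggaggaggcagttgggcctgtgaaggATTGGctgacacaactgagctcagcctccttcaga
Cyp4f16, chr17:32536504-32536568, plus strand: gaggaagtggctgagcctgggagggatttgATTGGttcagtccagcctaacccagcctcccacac
The first base of the motif lay 76, 50, 78 and 23 bases before the annotated start of Cyp4f13, Cyp4f14, Cyp4f15 and Cyp4f16. For Cyp4f14, which has 4 starts in the table, the most upstream is shown, and the window of the most downstream start held the box on the sense strand instead. CCAAT on either strand occurred in 37.4% of all 32851 promoters of the same length, and it was picked after the sequences had been read, so its presence is a description. AGGTCA repeated after 1 spacer base, the direct repeat bound by PPARA with its partner RXR, was in none of the 6 promoters on either strand. An exact match is rare, in 0.0396% of all promoters, so its absence from 6 does not tell whether PPARA binds there. Cyp4a10, Cyp4a12a, Cyp4a12b and Cyp4a14 had no entry.

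The array medians lay between 2.99 and 3.05 on the log2 scale. KO arrays 1 and 2 stood apart on the first principal component, at 35.7 and 32.1 against 0.661 for the next array, and KO array 4 on the second, at 41.8 against 4.16. KO array 4 also had a lower upper quartile over all clusters, 5.03 against 5.13 to 5.22 on the others. Abhd15 read between 5.46 and 5.81 in WT and between 5.04 and 5.21 in KO (log2 difference -0.52, SE 0.129, limma adjusted p = 0.795). Its groups did not overlap, and the exact permutation p was 0.0179, the smallest that the 56 splits of 3 against 5 arrays allow. All 8 hepatocyte markers were measured, with list means of 11.2 to 11.4 on every array.

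None of the 9 family 4 genes passed limma's adjusted threshold of 0.05, and neither did any of the 23521 clusters tested. At an unadjusted p under 0.05, 1 of the 9 genes was called, Cyp4a14, where 6.08% of all clusters were. Its groups were also the only ones among the 9 that did not overlap, against 4.43% of all clusters. That is 11.1% of the genes in each case, a share set by a single gene. When dim clusters (mean under 5) were left out of the fit, 1 of 8 family 4 genes was lower at that p, where 5.81% of the clusters kept were lower. Of the 9 genes, 6 were lower and 3 higher in the KO mean, with a median log2 difference of -0.03, and over all clusters 50.4% were lower with a median of 0.00. The count of lower genes was 3 without WT array 2, 4 without KO array 5, and 8 without KO arrays 1 and 2, where the median was -0.14. For the 8 genes with a mean of at least 5, the 95% intervals of the differences lay between -0.94 and 0.44. A 2-fold change in array values, which is 1 on this scale, lay outside all of these intervals, which were not adjusted for the number of genes. How array values scale with transcript amount was not tested, and the knocked-out gene Abhd15 itself read 1.43-fold lower.

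**Figure D1:**
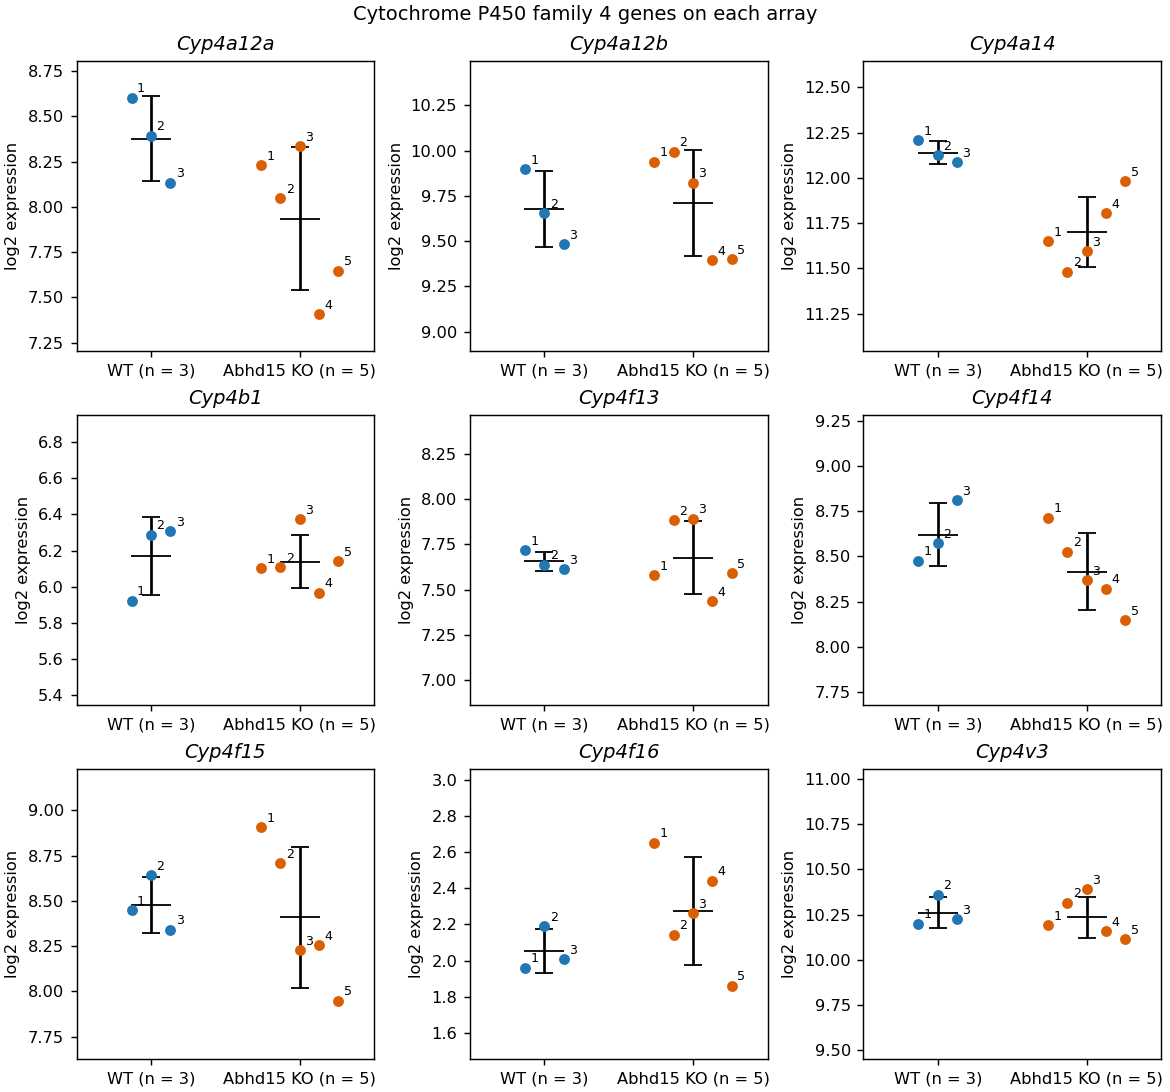
Log2 expression (y axis, covering the same span in each panel) of 9 family 4 genes in 3 WT (blue) and 5 Abhd15 KO (orange) liver samples, with array numbers beside the points and the mean ± SD in black. Cyp4a14 is the gene whose KO points, 11.48 to 11.98, all lie below the WT points, 12.09 to 12.21.

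Cyp4a14, a fatty acid omega-hydroxylase induced by PPARA, read 12.21, 12.13 and 12.09 on the WT arrays. On the KO arrays it read 11.65, 11.48, 11.60, 11.80 and 11.98. The WT arrays lay close together, and every KO array lay below them, with KO array 5 closest. WT averaged 12.14 ± 0.0616 (SD, n = 3) and KO averaged 11.70 ± 0.194 (SD, n = 5). The log2 difference of -0.44 (SE 0.142, 95% interval -0.75 to -0.12), or 1.35-fold lower, gave an exact permutation p of 0.0357 and a limma adjusted p of 0.795. It kept its direction in every alternative analysis run, between -0.56 and -0.35, with adjusted p-values from 0.416 to 0.973. Leaving arrays out could not change its sign, since the groups did not overlap, and only quantile and median scaling changed the values themselves. Without KO arrays 1 and 2 the log2 difference was -0.35 and the groups still did not overlap. The exact permutation p was then 0.1, the smallest possible with 3 against 3.

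Cyp4a12a, a male-biased hydroxylase of arachidonic acid, read 8.60, 8.39 and 8.13 on the WT arrays. On the KO arrays it read 8.23, 8.05, 8.34, 7.41 and 7.65. KO arrays 4 and 5 were the lowest of the 8, KO array 2 lay just below the WT range, and KO arrays 1 and 3 lay inside it. The log2 difference was -0.44 (SE 0.222, exact permutation p = 0.161, limma adjusted p = 0.838), the same size as that of Cyp4a14 with a wider spread. It was -0.31 without KO array 4 and -0.37 without KO array 5.

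Cyp4a12b, the adjacent copy of that gene, read 9.90, 9.65 and 9.48 on the WT arrays. On the KO arrays it read 9.94, 9.99, 9.82, 9.40 and 9.40. The groups overlapped, with KO arrays 1 and 2 the highest and KO arrays 4 and 5 the lowest of all 8. The log2 difference was 0.03 (SE 0.184, 95% interval -0.38 to 0.44, exact permutation p = 0.893), and it was -0.14 without KO arrays 1 and 2. The pair is nearly identical in sequence, so probes of 1 copy may also read the other.

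Because both Cyp4a12 clusters were measured on the same arrays, their difference within each sample could be taken. Cyp4a12a minus Cyp4a12b was -1.29, -1.26 and -1.35 on the WT arrays and -1.71, -1.95, -1.49, -1.99 and -1.75 on the KO arrays. The groups did not overlap, and the WT values spread less than the KO values. WT averaged -1.30 ± 0.0445 (SD, n = 3) and KO averaged -1.78 ± 0.202 (SD, n = 5), a shift of -0.48 that does not tell which of the clusters differed. This pair was picked after its values were seen, from 28 pairs of the 8 genes with a mean of at least 5. Another pair did not overlap, Cyp4a14 minus Cyp4f13, at 4.47 to 4.49 in WT and 3.60 to 4.39 in KO. With 2 of 28 pairs apart and both picked for it, these differences are a description, and no test is given for either.

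**Figure D2:**
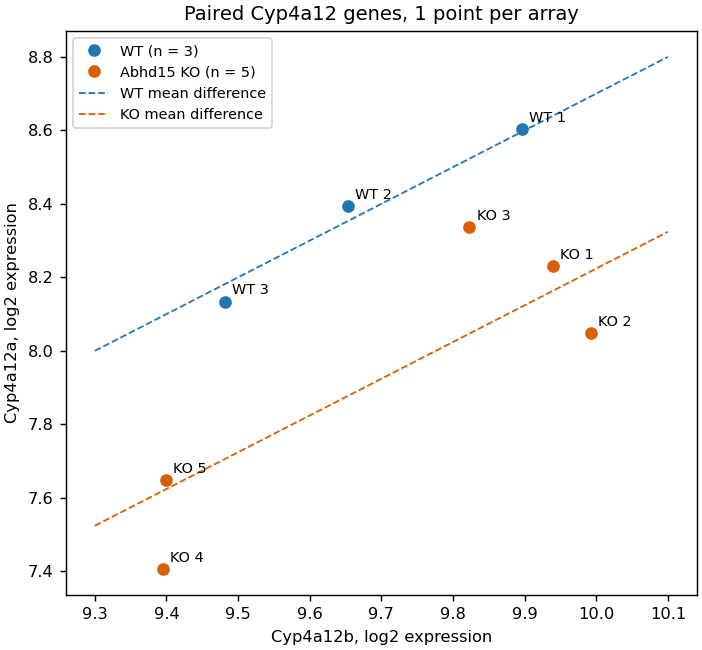
Log2 expression of Cyp4a12a (y axis) against Cyp4a12b (x axis), 1 point per array, WT in blue and Abhd15 KO in orange, with dashed lines at each group's mean difference between the genes. The 5 KO arrays lie below the WT line, at differences of -1.49 to -1.99 against -1.26 to -1.35 in WT.

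Cyp4a10, a PPARA-responsive hydroxylase, could not be read on its own. The cluster that lists both Cyp4a10 and Cyp4a31 read 11.63, 11.55 and 11.59 on the WT arrays and 11.43, 11.28, 11.62, 11.18 and 11.58 on the KO arrays. KO arrays 3 and 5 lay within the WT range and the other KO arrays below it, for a log2 difference of -0.17 (SE 0.142, exact permutation p = 0.214). The cluster that lists Cyp4a32 and Cyp4a10 had a log2 difference of 0.33 (SE 0.225, exact permutation p = 0.286), with KO arrays 3, 4 and 5, at 8.09 to 8.21, above all WT arrays, at 7.39 to 7.68, and KO arrays 1 and 2 at 7.58 and 7.33. A single-symbol cluster for Cyp4a31, a close relative, read 9.38, 8.85 and 8.19 in WT and 9.03, 8.10, 9.16, 8.97 and 9.20 in KO, a log2 difference of 0.09 (SE 0.30). No gene is assigned to the clusters with several symbols, and these near-identical copies may share probes.

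Cyp4f14, a leukotriene B4 hydroxylase, read 8.48, 8.57 and 8.81 on the WT arrays. On the KO arrays it read 8.71, 8.53, 8.37, 8.32 and 8.15. KO arrays 3, 4 and 5 lay below all WT arrays, and KO arrays 1 and 2 lay within the WT range. The log2 difference was -0.20 (SE 0.157, exact permutation p = 0.232, limma adjusted p = 0.89), -0.34 without KO arrays 1 and 2 (exact permutation p = 0.1), and -0.11 without WT array 3.

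Cyp4f15, a neighbouring hydroxylase of inflammatory lipids, read 8.45, 8.64 and 8.34 on the WT arrays. On the KO arrays it read 8.91, 8.71, 8.23, 8.26 and 7.95. The KO arrays lay on both sides of WT, with 1 and 2 above all WT arrays and 3, 4 and 5 below them. The log2 difference was -0.07 (SE 0.213, exact permutation p = 0.768), and -0.33 without KO arrays 1 and 2 (exact permutation p = 0.1). With those arrays left out, all KO arrays lay below WT for 3 of the 9 genes, Cyp4a14, Cyp4f14 and Cyp4f15, and for 6.17% of all clusters in the same comparison of 3 against 3. None of the 3 genes can reach an exact permutation p below 0.1 there.

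Cyp4f13, the third gene of this group in liver, read 7.72, 7.64 and 7.61 on the WT arrays. On the KO arrays it read 7.58, 7.89, 7.89, 7.44 and 7.59, so that the KO arrays surrounded the WT ones. The log2 difference was 0.02 (SE 0.145, 95% interval -0.30 to 0.34, exact permutation p = 0.982). Cyp4f16 read 1.96, 2.19 and 2.01 on the WT arrays and 2.65, 2.14, 2.26, 2.44 and 1.86 on the KO arrays. These values lie below the array medians, so whether they exceed background is unknown, and its log2 difference of 0.22 (SE 0.178), or 0.12 without KO array 1, is not read as a change in Cyp4f16.

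Cyp4v3, the mouse counterpart of human CYP4V2, a fatty acid hydroxylase mutated in an inherited retinal disease, varied least of the 9 genes, with an SD of 0.0996 over all arrays. It read 10.20, 10.36 and 10.22 on the WT arrays and 10.19, 10.32, 10.39, 10.16 and 10.11 on the KO arrays. The log2 difference was -0.03 (SE 0.125, 95% interval -0.30 to 0.25, exact permutation p = 0.696). Cyp4b1, a lung-enriched enzyme that also activates xenobiotics, read 5.92, 6.29 and 6.31 on the WT arrays and 6.10, 6.11, 6.37, 5.97 and 6.14 on the KO arrays. Its groups overlapped throughout, with a log2 difference of -0.03 (SE 0.146, 95% interval -0.36 to 0.29, exact permutation p = 0.839).

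**Figure D3:**
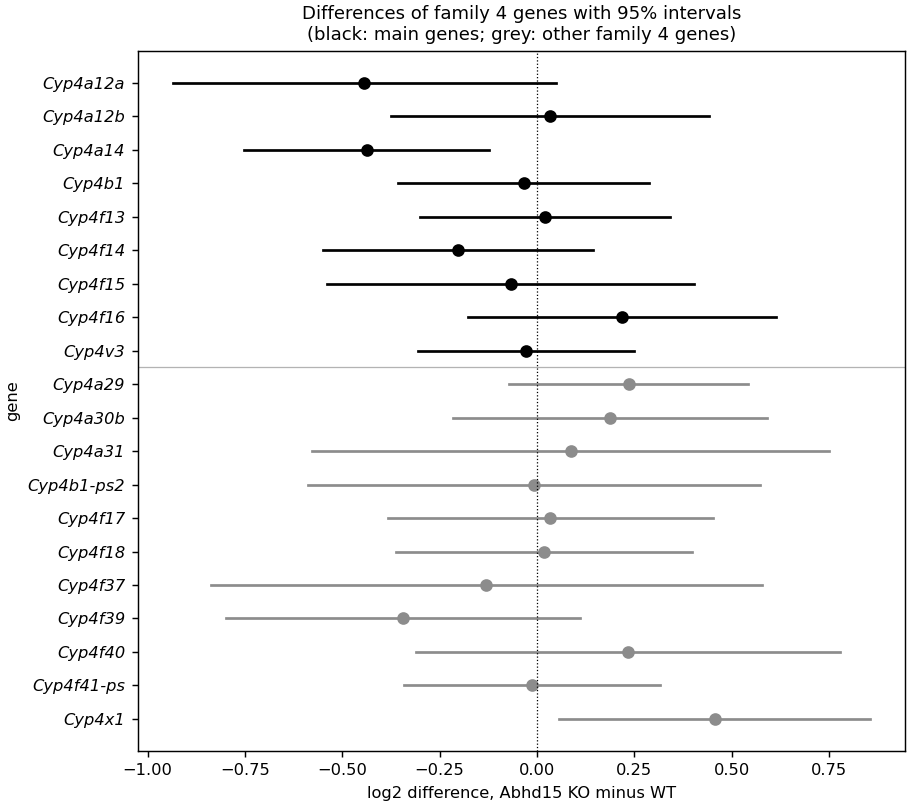
Log2 difference, Abhd15 KO minus WT (x axis, points) with limma's 95% interval (lines), for the 9 family 4 genes (black) and 11 other measured family 4 genes (grey). The intervals of Cyp4a14, -0.75 to -0.12, and of the dim Cyp4x1, 0.06 to 0.85, leave out 0, and neither gene passed the adjusted threshold.

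Arrays within the KO group also differed from each other. Among the 8 genes with a mean of at least 5, KO array 4 was the lowest array for 3 genes and KO array 5 for 3 others. KO array 4 lay below the gene's own mean for 8 of 8 genes and KO array 5 for 7 of 8, with median deviations of -0.18 and -0.21 log2 units. KO array 3 was the highest array for 3 of the 8. The exception on KO array 5 was Cyp4a14, which stood at 11.98 there, the highest of its KO values. KO arrays 1 and 2 held the highest values of Cyp4a12b, Cyp4f15 and Cyp4f14 among the KO arrays and, on array 2, the lowest of Cyp4a14. The lower upper quartile of KO array 4 moves with its low values, and its part in them was not tested, while the upper quartile of KO array 5, 5.14, lay within that of the other arrays.

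**Figure D4:**
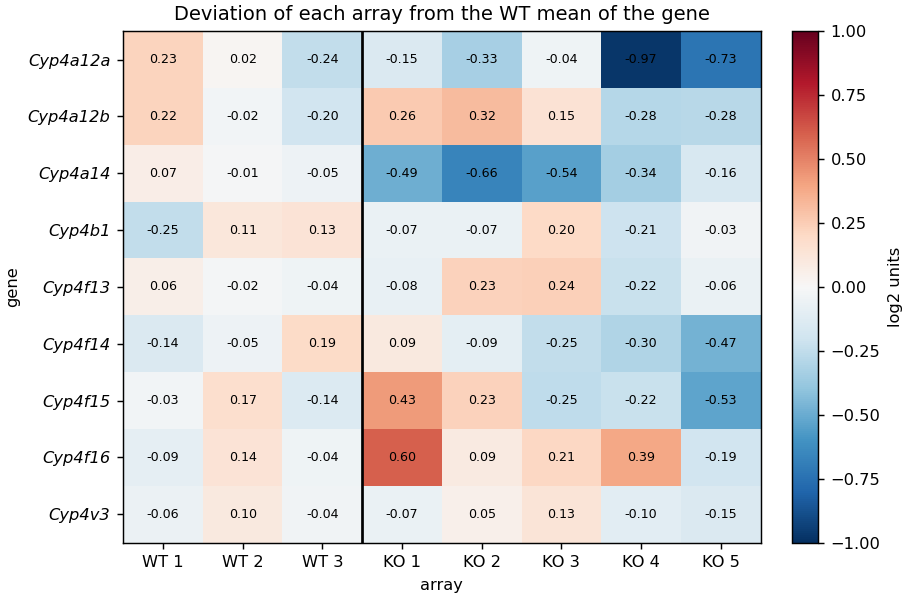
Deviation of each array (columns) from the gene's WT mean, in log2 units, for the 9 family 4 genes (rows), blue for lower and red for higher. Cyp4a14 is blue in all 5 KO columns, from -0.66 to -0.16, while Cyp4a12a, Cyp4f14 and Cyp4f15 are at their lowest in the columns of KO arrays 4 or 5.

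The 2 genes with the largest SD over the 8 arrays were Cyp4a12a (0.397) and Cyp4f15 (0.308). Likeness was measured as the root mean square distance between the 8 deviations of a pair of genes from their own means. Among 22180 genes, the 5 closest to Cyp4a12a were Ddx11 at 0.134, Zbtb45 and Gem at 0.139, and Pot1b and Rad51b at 0.153, where the median distance over all genes was 0.43. All 5 were dim, with means of 3.11 to 4.05. Closest to Cyp4f15 were Slc26a11 at 0.0785, Ppp1r16a at 0.0879, Il27 at 0.107, Galp at 0.108 and Susd6 at 0.111, against a median of 0.369. All of these but Susd6 were dim too, with means of 2.88 to 4.69. No other family 4 gene was among either set of 5. The closest of so many genes lie below the median distance by how they were picked, so these sets are a description.

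Of 15 other family 4 genes and pseudogenes listed, 11 had a single-symbol cluster, 7 higher and 4 lower in KO. None passed the adjusted threshold, and 1 was higher at an unadjusted p under 0.05, Cyp4x1, where 2.75% of all clusters were. Cyp4a31 and Cyp4f17 were the only ones of the 11 with a mean of at least 5. Cyp4x1, known mainly from brain, read 3.00, 2.89 and 2.90 in WT and 2.95, 3.44, 3.27, 3.81 and 3.46 in KO. KO array 1 lay within the WT range and the others above it, close to the array medians in WT, for a log2 difference of 0.46 (SE 0.18, exact permutation p = 0.0893, limma adjusted p = 0.795). Cyp4f17 read 6.82, 6.19 and 5.95 in WT and 6.21 to 6.52 in KO, a log2 difference of 0.03 (SE 0.188).

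Genes of the pathway around these enzymes were counted next. Among 39 measured PPARA targets other than the Cyp4a genes, 34 were lower and 5 higher in KO, with a median log2 difference of -0.24. None passed the adjusted threshold. At an unadjusted p under 0.05, 15 of the 39 were lower (38.5%, where 3.32% of all clusters were), and in 11 every KO array lay below every WT array (28.2%, against 2.44%). The 15 became 9 without WT array 1 and 11 without KO arrays 1 and 2. The share of all clusters includes many dim ones. When those were left out of the fit, 17 of 36 targets were lower at that p, where 5.81% of the clusters kept were. The list mean was 9.02, 8.80 and 8.65 on the WT arrays and 8.39, 8.35, 8.42, 8.46 and 8.69 on the KO arrays, so KO array 5 was the highest KO array and KO array 2 the lowest, as for Cyp4a14. The list was drawn up with earlier results of these data known, so its count is not independent of them.

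Aldh3a2, the fatty aldehyde dehydrogenase that follows omega-hydroxylation and is itself a PPARA target, was lower on all 5 KO arrays. It read 9.53, 9.57 and 9.53 on the WT arrays and 8.50, 8.33, 8.67, 8.43 and 9.24 on the KO arrays. KO array 5 was again closest to WT, and the groups did not overlap. The log2 difference of -0.91 (SE 0.197), or 1.88-fold lower, gave an exact permutation p of 0.0179 and a limma adjusted p of 0.795, with a range of 0.112 to 0.973 over the alternatives. Adh4, an alcohol dehydrogenase active on long-chain omega-hydroxy acids, read 8.64, 8.60 and 8.65 in WT and 8.18, 8.15, 8.45, 7.87 and 8.04 in KO. Its groups did not overlap either, with a log2 difference of -0.49 (SE 0.147, exact permutation p = 0.0179, limma adjusted p = 0.795). Ehhadh, the peroxisomal bifunctional enzyme that shortens dicarboxylic acids, had a log2 difference of -0.60 (SE 0.177), with KO array 5 at 11.52 inside the WT range of 11.50 to 12.02. In all, 11 of 18 measured genes that act after omega-hydroxylation were lower and 7 higher, with a median of -0.11, and 5 were lower at an unadjusted p under 0.05 (27.8%, where 3.32% of all clusters were). The lists overlap: 6 of these 18 genes were also among the 39 PPARA targets, and so were 4 of the 5. With dim clusters left out of the fit, 6 of 15 genes that act after omega-hydroxylation were lower at that p, against 5.81% of the clusters kept.

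The other 2 PPARA targets with the smallest p were Acot3, a peroxisomal acyl-CoA thioesterase, at -1.50 (SE 0.259, limma adjusted p = 0.376), and Vnn1, a pantetheinase, at -0.83 (SE 0.189, limma adjusted p = 0.795), both log2 differences without overlap. Ppara itself read 8.26, 8.27 and 7.84 in WT and 8.14, 8.24, 8.51, 8.09 and 7.96 in KO, a log2 difference of 0.06 (SE 0.164). Of 17 measured genes for PPARA, related receptors and coregulators, 12 were higher and 5 lower, with a median of 0.05 and none at an unadjusted p under 0.05. Without KO arrays 1 and 2, 7 of them were higher and 10 lower, with a median of -0.03. The smallest p belonged to the retinoid receptor Rxrg (0.28, SE 0.167, dim), the xenobiotic receptor Nr1i3 (-0.37, SE 0.243) and the oxysterol receptor Nr1h3 (-0.15, SE 0.127, and -0.07 without KO arrays 1 and 2). Nr1i3 was low on KO arrays 1 and 2, at 7.79 and 8.09, against 8.73 to 8.88 on the other 6 arrays, and its log2 difference without those was -0.03.

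**Figure D5:**
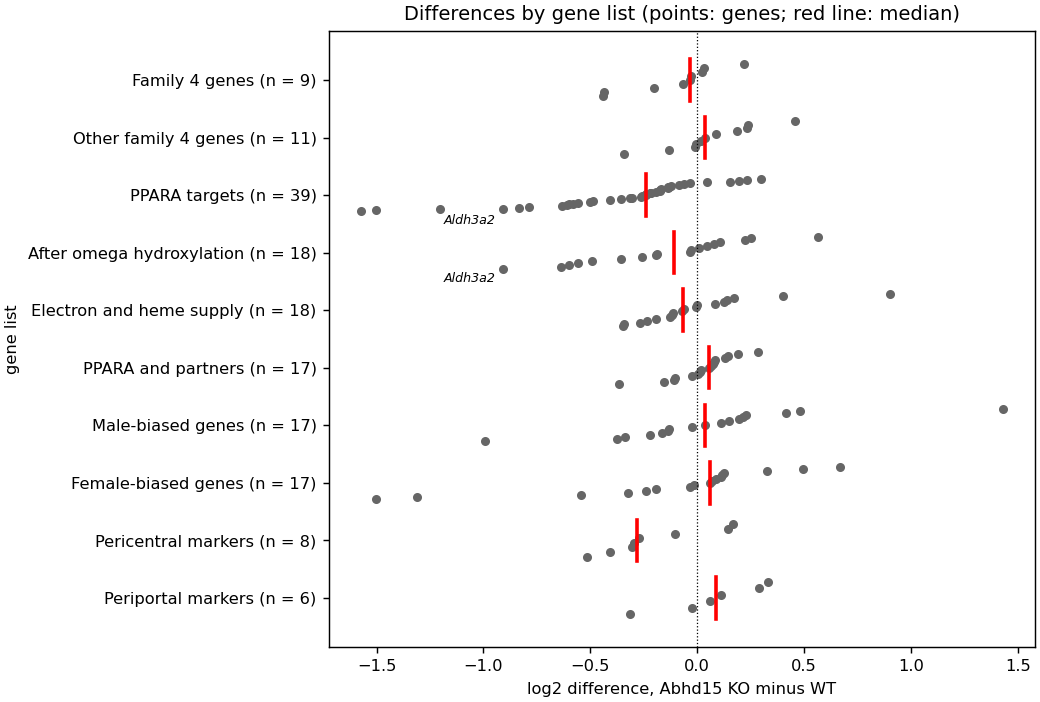
Log2 difference, Abhd15 KO minus WT (x axis), for each measured gene (grey points) of 10 gene lists (rows), with the list's median in red. The median of the PPARA targets is -0.24 and that of the 9 family 4 genes -0.03, and no point passed the adjusted threshold.

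Cytochrome P450 enzymes need electrons from their reductase and cytochrome b5, and heme. Of 18 measured genes for electron and heme supply, 12 were lower and 6 higher, with a median of -0.07, and Por, the reductase itself, had no single-symbol cluster. Hmox1, the heme-degrading oxygenase, read 6.48, 6.49 and 6.69 in WT and 8.52, 7.85, 6.74, 7.17 and 6.997 in KO. All KO arrays lay above WT, most of all KO arrays 1 and 2, with a log2 difference of 0.90 (SE 0.347, exact permutation p = 0.0893), and 0.41 without those arrays. Cyb5b, the outer mitochondrial cytochrome b5, had a log2 difference of -0.34 (SE 0.133) with no overlap, and Cpox, an enzyme of heme synthesis, one of -0.35 (SE 0.196). Cpox was lowest on KO arrays 1 and 2, at 9.15 and 8.95, and its log2 difference was -0.23 without KO array 2 and -0.10 without both. None of the 3 passed the adjusted threshold (limma adjusted p = 0.795, 0.795 and 0.853).

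Since Cyp4a12a and Cyp4a12b are male-biased, sex-biased liver genes were read beside them. Of 17 measured male-biased genes 9 were higher and 8 lower (median log2 difference 0.04), and of 17 female-biased genes 9 were higher and 8 lower (median 0.06). Most of the female-biased genes were dim. With a mean of at least 5 there were 5 of them, 2 higher and 3 lower (median -0.19), and 15 male-biased genes, 8 higher and 7 lower (median 0.04). Without KO arrays 1 and 2, 10 of the 17 female-biased genes were lower (median -0.04). Cyp2d9, a male-biased P450, read 9.79, 9.32 and 9.66 in WT and 9.38, 9.38, 9.76, 9.99 and 9.33 in KO, and its log2 difference was -0.02 (SE 0.19). The highest Cyp2d9 value was on KO array 4, where Cyp4a12a was lowest. The male-biased list mean was 9.12, 8.95 and 9.08 on the WT arrays. On the KO arrays it was 9.03, 9.32, 9.365, 9.05 and 8.75. It was thus lowest on KO array 5, where Cyp4a12a, at 7.65, and Cyp4a12b, at 9.40, were also near their lowest. Cyp2b9, a female-biased P450, stayed dim on all arrays, between 1.92 and 2.80. The smallest p among male-biased genes belonged to Cyp7b1, the oxysterol hydroxylase (0.48, SE 0.214), Ugt2b38 (1.43, SE 0.65) and the anion transporter Slco1a1 (-0.34, SE 0.172). Without WT array 2 the log2 differences of Ugt2b38 and Slco1a1 were 0.58 and -0.21. Among female-biased genes it belonged to Acot3, Cyp2c40 (-1.31, SE 0.458) and Cyp2a4 (0.67, SE 0.391), and none of these passed the adjusted threshold. Cyp2a4 had a log2 difference of 0.44 without KO array 2 and 0.13 without KO arrays 1 and 2.

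In whole liver, fewer cells of a type and less RNA per cell cannot be told apart. Pericentral hepatocyte markers, from the zone around the central vein where Cyp4a genes are mainly expressed, were lower in 6 of 8 cases, with a median log2 difference of -0.28. Their list mean ran from 8.42 to 8.61 in WT and from 8.21 to 8.58 in KO. The median was -0.16 without KO arrays 1 and 2. Slc1a2, a glutamate transporter, had a log2 difference of -0.41 without overlap (exact permutation p = 0.0179). Oat, ornithine aminotransferase, had one of -0.27 without overlap (exact permutation p = 0.0357), and neither passed the adjusted threshold. These 2 of the 8 markers were picked for lying apart, where 2.44% of all clusters did so with KO lower. The 2 higher markers were Axin2 (0.14, SE 0.282) and Rhbg (0.17, SE 0.186), and Cyp2e1 was near 0 (-0.10, SE 0.118). Glul, glutamine synthetase of the innermost zone, read 10.27 to 10.87 in KO against 10.65 to 10.999 in WT. Periportal markers were higher in 4 of 6 cases, with a median of 0.09 and list means of 9.19 to 9.43 in WT and 9.19 to 9.59 in KO. The part of these markers in the values of Cyp4a14 was not tested. The 7 lists for other cell types and tissues had median log2 differences from -0.06 to 0.19, the highest for macrophages (list means 5.57 to 6.04 in WT and 5.29 to 6.48 in KO). The kidney and lung markers were dim throughout, with list means of 2.09 to 2.44. Lymphocyte and neutrophil markers were dim too, with list means of 2.80 to 3.16 and 1.96 to 2.43, and so were the cholangiocyte markers other than Sox9. Whether these dim markers exceed background is unknown, so their medians do not show that those cell types were unchanged. Single markers of the 7 lists were apart without overlap. They were 1 of 6 for sinusoidal endothelium and 1 of 6 for stellate cells, against 4.43% of all clusters. Lyve1, of sinusoidal endothelium, had a log2 difference of 0.65 (SE 0.164, exact permutation p = 0.0179). Lrat, of stellate cells, had one of -0.34 (SE 0.136, exact permutation p = 0.0357). Neither passed the adjusted threshold. The other endothelial markers lay between -0.26 and 0.03 and the other stellate markers between -0.10 and 0.22, all with overlap. Lyve1 and Lrat were picked for lying apart, and their part in the family 4 values was not tested.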

How the data were processed

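Each of 3 WT and 5 Abhd15 KO liver samples had 1 array, and groups came from the sample titles. Each label speaks of liver from a mouse, with no animal numbers, so whether all 8 came from different mice is not stated, and p-values measure only how these samples vary. The authors deposited log2 expression values for 41345 transcript clusters. The submitters' processing notes name RMA and the oligo package, and the design text names Expression Console. Not given in the sources used here were versions, settings and genome build. RMA's summaries can understate differences of dim clusters. That the scale is log2 was read from the range, 0.409 to 13.27.

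In the platform's annotation 23521 clusters have 1 gene symbol, 1814 have several and 16010 are not listed. Of the first, 23328 matched RefSeq's GRCm38.p6 table by Entrez ID. Values of different clusters were not set against each other as levels, and array number limits precision. All 8 arrays entered the fit of KO minus WT, made in R 4.3.3 by limma 3.58.1 (lmFit, eBayes, two-sided, Benjamini-Hochberg over the 23521 clusters, threshold 0.05), after a test on simulated data. Single genes were also compared by exact permutation of the group labels, two-sided, on the difference in means. No p was adjusted over the gene lists alone, and no list was tested.

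The genes and lists were chosen with earlier results of these data known. Named are the 10 genes, the other family 4 genes, Abhd15, the 3 genes of each pathway list with the smallest p, a few fixed genes, and the 5 genes most like the 2 most variable ones. Cell type markers are named as examples. Dim means a mean under 5. Alternatives were eBayes with trend and robust settings, filters on dim clusters, quantile or median scaling, all clusters together, each array left out, KO arrays 1 and 2 left out, the replicate number as a block, and the mean of a gene's clusters. No batch was given in the sources used here.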

Additional observations from a re-analysis of the deposited data

Results flagged for a closer look

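In 4 of 40 genes examined, 1 of the 5 KO arrays lay far from the other 4 (Dixon's test at its 95% critical value for 5 samples, 0.71), where chance flags about 1 in 20 groups. Cyp4a31 read 8.10 on KO array 2, against 8.97 for the next array. Cyp4f37 read 3.45 on KO array 4, against 2.30, Cyp4f39 read 2.77 on KO array 5, against 2.05, and Cyp4f40 read 3.39 on KO array 3, against 2.48. These last 3 clusters are dim.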

How the results depend on the processing

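The count of clusters past limma's adjusted threshold, 0, became 3 with trend and robust settings, 1 among clusters with a mean of at least 5, 3 when all 41345 clusters were fitted together, and 1 with the replicate block. It stayed 0 in the other alternatives, and no family 4 gene was among the calls. Clusters with an unadjusted p under 0.05 numbered 1429, and 636, 845 and 2316 with the filter at 5, the filter at the median level and all clusters, where fewer or more clusters were tested. Deviations of same-numbered WT and KO arrays had correlations of -0.0477, 0.0157 and 0.0212, and 3 of 6 arrays correlated best with their own number. These values show no sign that the numbers pair the samples, but so few arrays cannot exclude a pairing. The replicate block takes KO arrays 4 and 5 out of the difference, because WT has no arrays with those numbers. With this block, 1818 clusters had an unadjusted p under 0.05, and Cyp4a14 and Cyp4a12a had log2 differences of -0.56 and -0.17.

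Over 40 named genes, 602 of 655 alternative values kept their direction and side of the threshold and 53 changed sign, in 14 genes whose differences were at most 0.13 in size. The values with the replicate block are differences without KO arrays 4 and 5. Alternatives that change only the variance model or the clusters tested leave a difference as it is. The cause of the sign changes was not tested. The signs that changed with the replicate block were Cyp4a31 at -0.0397, Cyp4b1 at 0.022, Cyp4f15 at 0.14, Cyp4f17 at -0.025 and Cyp4v3 at 0.038, and with quantile scaling Cyp4b1 at 0.0113. Without KO arrays 1 and 2 they were Cyp2d9 at 0.10, Cyp4a12b at -0.14, Cyp4b1-ps2 at 0.32, Cyp4f13 at -0.0163, Cyp4f18 at -0.039, Cyp4f37 at 0.11 and Cyp4f41-ps at 0.00667. Leaving out single arrays gave -0.00217 to 0.22 for Cyp2b9, -0.16 to 0.077 for Cyp2d9, -0.0647 to 0.14 for Cyp4a12b, -0.22 to 0.38 for Cyp4a31, -0.16 to 0.0325 for Cyp4b1, -0.18 to 0.13 for Cyp4b1-ps2, -0.0333 to 0.0807 for Cyp4f13, -0.19 to 0.0473 for Cyp4f15, -0.15 to 0.28 for Cyp4f17, -0.078 to 0.16 for Cyp4f18, -0.38 to 0.0149 for Cyp4f37, -0.17 to 0.10 for Cyp4f41-ps, -0.0668 to 0.0216 for Cyp4v3 and -0.0785 to 0.14 for Ppara. The median difference of the 9 genes lay between -0.14 and 0.04, above 0 with the replicate block (0.04), without WT array 2 (0.02) and without KO array 5 (0.00).

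No detection call was used here, so background cannot be told from signal in clusters with a mean under 5, which limits Cyp4f16 and 9 of the 11 other family 4 genes. Probes common to near-identical Cyp4a copies were not examined.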
